A study of Homo sapiens with 6 samples.

Results

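The sarcoplasmic reticulum calcium pumps and the small proteins that set their activity were followed in cardiomyocytes derived from human induced pluripotent stem cells. The group was defined by gene symbol and held 7 of the 38557 genes listed in each count file: the pumps ATP2A1, ATP2A2 and ATP2A3 (SERCA1, SERCA2 and SERCA3), the micropeptides PLN (phospholamban) and SLN (sarcolipin), the phosphatase inhibitor PPP1R1A and the calcium binder HRC. The cells came from WTC11, an established stem cell line labelled WT, so every library has the same genotype label. They were kept either in RPMI plus B27, a serum-free supplement (3 biological replicates), or in DMEM plus fatty acids (3 biological replicates), and the comparison is between these media. The labels give neither the time in each medium nor whether the replicates were separate differentiations, so p values measure only the spread between these libraries.

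SERCA pumps return calcium from the cytosol to the sarcoplasmic reticulum and so bring each contraction to its end. SERCA2 is the pump of the heart, SERCA1 that of fast skeletal muscle, and SERCA3 is found mostly in blood, endothelial and epithelial cells. PLN binds SERCA2 in the membrane and lowers its apparent affinity for calcium. Phosphorylation of PLN by protein kinase A or by calcium/calmodulin-dependent kinase II releases the pump, protein phosphatase 1 reverses this, and PPP1R1A (inhibitor-1) holds the phosphatase back. SLN is a shorter inhibitor of the same kind, found mainly in atrial and skeletal muscle. Further membrane micropeptides act on the same pumps, among them the product of STRIT1 (DWORF), which displaces PLN and raises pump activity, and that of C4orf3 (another-regulin, ALN), an inhibitor with wide tissue expression.

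The coding sequences of the 4 micropeptides tested are shown because the results turn on these short genes, and PLN alone is shown with its phosphorylated residues marked. They were taken from GENCODE 29 on GRCh38, the assembly that the hg38 of the submitters' processing notes denotes. Capitals mark the start and stop codons and, in PLN, codons 16 and 17 counted from the start codon, which encode the serine and the threonine phosphorylated by the 2 kinases.
PLN: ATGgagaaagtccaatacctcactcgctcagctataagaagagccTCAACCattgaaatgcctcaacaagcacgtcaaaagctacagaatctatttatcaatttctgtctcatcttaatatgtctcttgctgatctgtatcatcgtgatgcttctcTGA
SLN: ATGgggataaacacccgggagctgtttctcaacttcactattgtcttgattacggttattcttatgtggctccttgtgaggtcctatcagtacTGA
STRIT1: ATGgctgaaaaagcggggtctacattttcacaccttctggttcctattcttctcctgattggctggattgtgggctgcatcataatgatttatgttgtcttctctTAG
C4orf3: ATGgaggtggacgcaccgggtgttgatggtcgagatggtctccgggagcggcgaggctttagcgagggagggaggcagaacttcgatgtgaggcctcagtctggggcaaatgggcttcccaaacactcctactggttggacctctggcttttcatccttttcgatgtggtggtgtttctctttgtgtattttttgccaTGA

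ATP2A2 lies at chr12:110280756-110351093 and ATP2A1 at chr16:28878405-28904509, both on the plus strand, and ATP2A3 lies at chr17:3923870-3964464 on the minus strand. PPP1R1A lies at chr12:54575387-54588659 and HRC at chr19:49151198-49155424, both on the minus strand. The PLN frame encodes 52 residues in 1 exon at chr6:118558922-118559080 on the plus strand, and the SLN frame encodes 31 residues in 1 exon at chr11:107707835-107707930 on the minus strand. The STRIT1 frame of 35 residues is split over 2 exons between chr3:155290944-155293632 on the minus strand. The C4orf3 frame shown is the shorter of those annotated, with 66 residues between chr4:119298779-119300535 on the minus strand. PLN lies inside the span of CEP85L, which is read from the opposite strand, and the annotation gives them no shared exonic base. ATP2A1 shares 246 exonic bases with its antisense gene ATP2A1-AS1 and 89 with RABEP2, and PPP1R1A shares 443 with PDE1B, each on the opposite strand. The strand setting of the counting is not given in the sources used here, so counts from these stretches are uncertain.

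Library totals were 23232324 to 31035389 gene counts, and 16107 genes passed the filter on low counts, all 7 members included. SLN passed only through its RPMI plus B27 libraries and STRIT1 only through its DMEM plus fatty acids libraries. In each case that was the medium with more counts of the gene. The data are from bulk cultures, where fewer cells of a type and less RNA per cell cannot be told apart. The 12 cardiomyocyte markers examined, among them TNNT2 and MYBPC3, were all detected and summed to 13054 to 14796 CPM (counts scaled to library size by the TMM method) in RPMI plus B27 and to 9616 to 14507 CPM in DMEM plus fatty acids. The 10 fibroblast markers summed to 4329 to 8382 CPM in RPMI plus B27 and to 732 to 1942 CPM in DMEM plus fatty acids. The 6 ventricular markers summed to 10244 to 16599 CPM in RPMI plus B27 and to 4721 to 9110 CPM in DMEM plus fatty acids. The fibroblast and ventricular sums did not overlap between media, whereas the cardiomyocyte sums did. Most of the ventricular sum was MYH7, the slow myosin heavy chain.

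None of the 7 members passed the test for a difference (quasi-likelihood test of edgeR, adjusted p under 0.05 after Benjamini and Hochberg), which 1.36% of the 16107 genes passed, 47 of them higher in DMEM plus fatty acids and 172 lower. Scaling by total counts moved that split to 74 higher and 128 lower and the all-gene median from 0.01 to 0.12 (log2). At an unadjusted p under 0.05 there was 1 member, SLN, against 17.7% of all genes. SLN was also the 1 member called when the replicate number was entered as a block (4.78% of all genes) and the 1 member called by the DESeq2 Wald test (7.52% of all genes). It was the 1 member whose CPM did not overlap between media, as held for 25.6% of all genes. Fold changes are given as DMEM plus fatty acids relative to RPMI plus B27. The members' median log2 fold change was -0.13, with 5 lower and 2 higher, beside 0.01 for all genes.

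**Figure D1:**
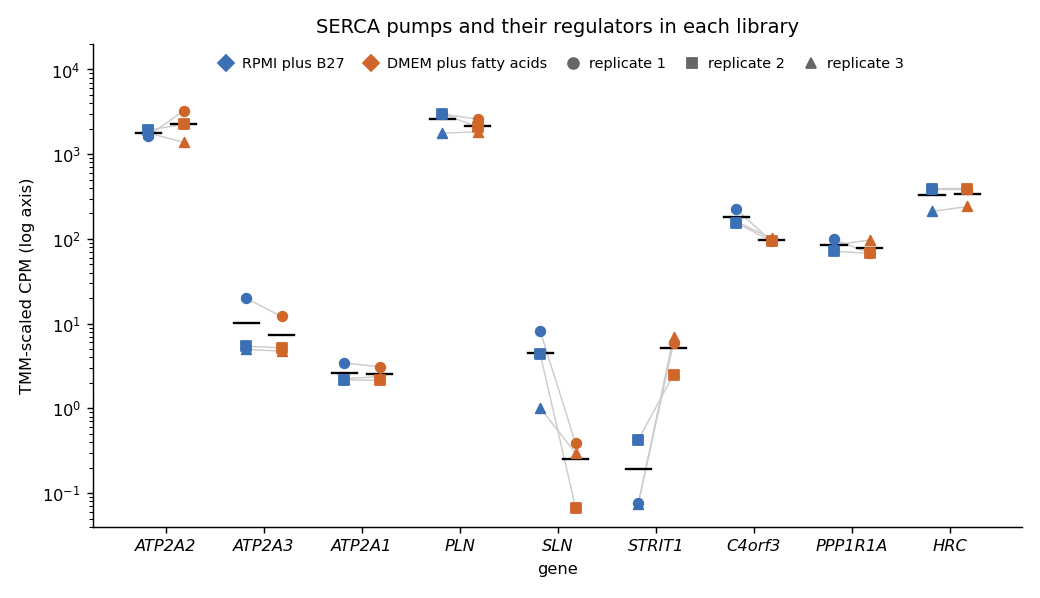
TMM-scaled CPM (log axis) of the 7 members and of STRIT1 and C4orf3 in each of the 6 libraries, with the mean of each medium as a black bar and grey lines joining libraries of the same replicate number. SLN lies lower and STRIT1 higher in all 3 DMEM plus fatty acids libraries, while ATP2A2, PLN, PPP1R1A and HRC overlap between media.

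Among the pumps, ATP2A2 carried nearly all of the counts. It had 1657, 1931 and 1779 CPM in RPMI plus B27 (replicates 1 to 3) and 3253, 2245 and 1382 CPM in DMEM plus fatty acids. Replicates 1 and 2 in DMEM plus fatty acids were above all RPMI plus B27 libraries and replicate 3 was below all of them, so the media overlapped. The spread was wide in DMEM plus fatty acids, at 2293 ± 936 CPM against 1789 ± 137 CPM (SD, n = 3 each). The log2 fold change was 0.36 ± 0.30 (SE, edgeR, adjusted p 0.575), with a 95% interval of -0.34 to 1.05, or 0.79-fold to 2.08-fold. That interval holds a decrease and no difference as well as a clear increase. Leaving out DMEM plus fatty acids replicate 1 gave 0.02 and leaving out replicate 3 of that medium gave 0.62, and neither was called.

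ATP2A3 and ATP2A1 were minor components. ATP2A3 had 19.9, 5.40 and 4.96 CPM in RPMI plus B27 and 12.1, 5.18 and 4.74 CPM in DMEM plus fatty acids. Replicate 1 was the highest library in both media and the other 4 lay close together, and the log2 fold change of -0.46 ± 0.62 (edgeR, adjusted p 0.741) became 0.50 without RPMI plus B27 replicate 1. ATP2A1 had 3.43, 2.17 and 2.24 CPM in RPMI plus B27 and 3.10, 2.14 and 2.37 CPM in DMEM plus fatty acids, which gave -0.05 ± 0.30 (edgeR, adjusted p 0.953). Its sign changed when libraries were scaled by total counts (0.06). Replicate 1 was again the highest in each medium. Markers of cell types known for SERCA3 were measured beside ATP2A3. The 6 blood markers summed to 6.89 CPM in RPMI plus B27 replicate 1 and to 1.94 to 3.15 CPM elsewhere. Most of the sum in that library was ITGA2B (4.11 CPM), at 109 counts against 2 to 18 in the others. GP1BA was also highest there (70 counts against 44 to 56), whereas SPI1 was lowest there (2 counts against 4 to 14). HBG1 had 0 counts and PTPRC, the leukocyte antigen CD45, had 1 count or fewer in every library. The sum of the 6 endothelial markers was 30.1 CPM in RPMI plus B27 replicate 1 and 115 to 463 CPM elsewhere. That sum was nearly all KDR, at 27.5 CPM in RPMI plus B27 replicate 1, and other endothelial markers ran the other way, with TEK and CDH5 highest in that library (30 and 11 counts). The 5 epithelial markers, mostly KRT8 and KRT18, summed to 1967 to 2419 CPM in RPMI plus B27 and to 901 to 1104 CPM in DMEM plus fatty acids. EPCAM and CDH1 overlapped between media. EPCAM had a log2 fold change of 0.11 ± 0.43. CDH1 had 10, 36 and 398 counts in RPMI plus B27 and 5, 7 and 197 in DMEM plus fatty acids, mostly in replicate 3 of each. The part of these cells in the ATP2A3 level was not tested.

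By counts, ATP2A2 made up 98.6% of the SERCA counts in RPMI plus B27 replicate 1 (95% Wilson interval 98.5% to 98.7%) and 99.5% to 99.7% in the other 5 libraries. The mean share was 99.3% ± 0.57 in RPMI plus B27 (SD, n = 3), against 99.6% ± 0.10 in the other medium (SD, n = 3). The exact two-sided permutation p was 0.7, or 0.84 adjusted over the 6 ratios and shares compared. For ATP2A3 the share was 1.18% in RPMI plus B27 replicate 1 and 0.23% to 0.37% in the others.

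PLN was among the most abundant transcripts of the cells. It had 2960, 3019 and 1767 CPM in RPMI plus B27 and 2602, 2088 and 1845 CPM in DMEM plus fatty acids, and ranked between the 18th and the 34th of all tested genes in the 6 libraries. Replicate 3 was the lowest library in both media, and the media overlapped. The log2 fold change was -0.25 ± 0.25 (edgeR, adjusted p 0.658), with a 95% interval of -0.84 to 0.35. CEP85L, whose span holds PLN, had 5.56 to 8.53 CPM in all libraries, with a log2 fold change of 0.37 ± 0.20 (edgeR, adjusted p 0.381).

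SLN had the largest fitted difference of the 7 members and few counts. It had 215, 102 and 27 counts in RPMI plus B27 and 9, 2 and 10 in DMEM plus fatty acids. These were 8.10, 4.34 and 1.01 CPM against 0.39, 0.067 and 0.30 CPM. All 3 RPMI plus B27 libraries were above all 3 DMEM plus fatty acids libraries, though RPMI plus B27 replicate 3 was well under the other 2. The log2 fold change was -4.17 ± 0.88 (SE, edgeR adjusted p 0.0751), with a 95% interval of -6.22 to -2.11, or 0.013-fold to 0.23-fold. Under the replicate block it was -3.86 ± 0.71 (edgeR adjusted p 0.0403). Within replicate numbers 1, 2 and 3 the log2 differences were -4.39, -6.02 and -1.76. Summed over libraries, the 344 counts in RPMI plus B27 against 21 in DMEM plus fatty acids gave an 18.5-fold lower level (exact 95% interval 11.9 to 30.3, counting error only). SLN was called in 4 of its 11 alternatives. Leaving out 1 library at a time gave log2 fold changes of -4.64 to -3.42 and edgeR adjusted p values of 0.0418 to 0.212, with a call only without RPMI plus B27 replicate 3.

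Markers of other muscle types were set beside SLN. The 9 atrial markers summed to 8145 to 11674 CPM in RPMI plus B27 and to 5623 to 11684 CPM in DMEM plus fatty acids, and 0 of the 8 tested passed the edgeR test (1 at an unadjusted p under 0.05, 1 by DESeq2, NPPA, and 2 lower under the replicate block). Those 2 were NPPA, atrial natriuretic peptide, and KCNA5, an atrial potassium channel. NPPA had 392.5, 184.9 and 155.0 CPM in RPMI plus B27 and 66.0, 66.3 and 86.0 CPM in DMEM plus fatty acids (-1.75 ± 0.35; edgeR adjusted p 0.0646, or 0.0460 under the block). KCNA5 had 35.9, 4.76 and 2.50 CPM against 8.31, 2.01 and 0.889 CPM (-1.97 ± 1.14; edgeR adjusted p 0.412, or 0.0245 under the block), and the unblocked value was 0.02 without RPMI plus B27 replicate 1. MYL7, the atrial myosin light chain, overlapped between media and had a log2 fold change of 0.00 ± 0.35 (edgeR, adjusted p 0.998). Of 12 skeletal muscle markers, MYOD1, MYF5, PAX7 and MYH8 had 0 counts in every library, and the list summed to 2.31 to 18.3 CPM in RPMI plus B27 and 2.81 to 3.44 CPM in DMEM plus fatty acids. The 3 skeletal muscle markers with enough counts all had values below 0, with a median of -2.08, and 0 passed edgeR (1 at an unadjusted p under 0.05 and 1 by DESeq2, both TNNT3). TNNT3, the fast skeletal troponin T, had 6.48, 1.66 and 0.52 CPM in RPMI plus B27 and 0.517, 0.27 and 0.33 CPM in DMEM plus fatty acids, without overlap (-2.97 ± 0.89, edgeR adjusted p 0.158). Fibroblast markers, given above, were lower in the same medium as SLN, with 6 of 10 called by edgeR. The 6 smooth muscle markers summed to 1602 to 2037 CPM in RPMI plus B27 and to 356 to 1176 CPM in DMEM plus fatty acids, without overlap, and 1 was called lower by edgeR (4 at an unadjusted p under 0.05, 2 under the block). Of the 6 ventricular markers, 4 had values below 0 and 2 above, and 0 passed edgeR (2 at an unadjusted p under 0.05, 1 by DESeq2 and 1 under the block, MYH7 in both). The part of these other cell types in the SLN difference was not tested.

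The other SERCA micropeptides came from a list of 4. STRIT1 was the 1 of them called. It had 2, 10 and 2 counts in RPMI plus B27 and 138, 75 and 237 counts in DMEM plus fatty acids, or 0.075, 0.43 and 0.075 CPM against 5.94, 2.51 and 7.03 CPM. All 3 DMEM plus fatty acids libraries were above all 3 RPMI plus B27 libraries. STRIT1 rose by 4.76 ± 0.72 on the log2 scale (SE, edgeR adjusted p 0.0402), and by 4.69 ± 0.76 under the replicate block (edgeR adjusted p 0.0299). Without the block the 95% interval was 3.07 to 6.45, or 8.40-fold to 87.5-fold. The summed counts, 14 against 450, gave a 28.4-fold higher level (exact 95% interval 16.8 to 52.5, counting error only). Within replicate numbers the log2 differences were 6.30, 2.56 and 6.56. Leaving out any 1 library kept the direction (4.38 to 6.02) and lost the call (edgeR adjusted p 0.0715 to 0.0959).

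C4orf3 was lower in DMEM plus fatty acids for each replicate number, with an edgeR adjusted p just over the threshold. It had 224.2, 155.5 and 160.2 CPM in RPMI plus B27 and 93.7, 93.9 and 101.7 CPM in DMEM plus fatty acids. The DMEM plus fatty acids libraries lay close together and were all under the lowest RPMI plus B27 library. Counts are per gene symbol, so they do not separate C4orf3 transcripts with the shorter frame shown from those with a longer one. The log2 fold change was -0.90 ± 0.16 (SE, edgeR adjusted p 0.0523), or -0.88 ± 0.15 under the replicate block (edgeR adjusted p 0.0319). It was called in 4 of its 12 alternatives, namely the block, DESeq2 (adjusted p 0.000178), the DESeq2 size factors in edgeR (0.0497) and no filter on low counts (0.0168). MRLN (myoregulin) had at most 3 counts and SMIM6 (endoregulin) at most 4 counts in any library, and neither was tested.

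**Figure D2:**
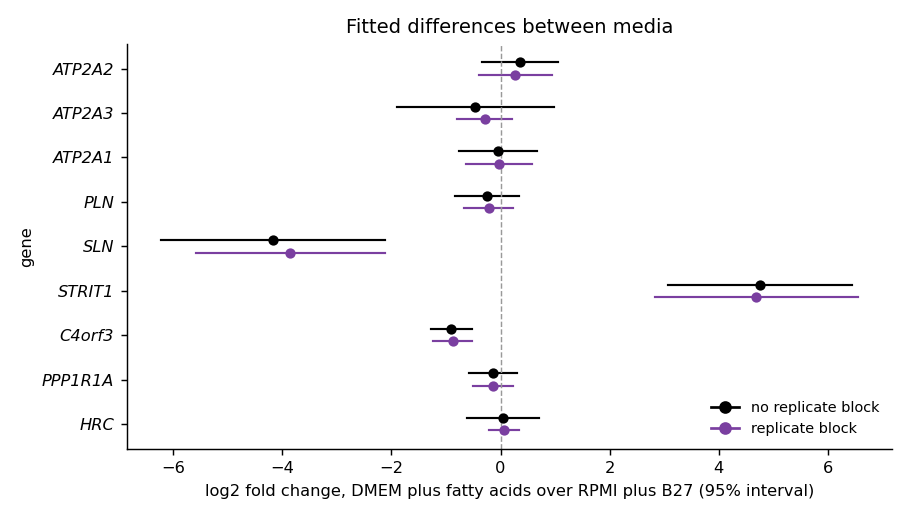
Log2 fold change of each member, STRIT1 and C4orf3 between media (horizontal axis, DMEM plus fatty acids relative to RPMI plus B27) with 95% intervals, without (black) and with (purple) the replicate number as a block. The intervals of SLN, STRIT1 and C4orf3 lie on one side of 0 in both fits, and those of the other 6 genes hold 0 in both.

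PPP1R1A had 98.5, 71.5 and 84.8 CPM in RPMI plus B27 and 68.0, 67.5 and 97.0 CPM in DMEM plus fatty acids. The media overlapped, with a log2 fold change of -0.13 ± 0.19 (edgeR, adjusted p 0.758) and a 95% interval of -0.57 to 0.31. HRC, which binds calcium in the lumen of the reticulum and contacts both SERCA2 and triadin, had 383.6, 391.2 and 211.2 CPM in RPMI plus B27 and 383.2, 392.8 and 241.4 CPM in DMEM plus fatty acids. Replicates 1 and 2 were nearly the same in both media and replicate 3 was low in both. The log2 fold change was 0.05 ± 0.28 (edgeR, adjusted p 0.95). Its 95% interval was -0.62 to 0.71, and -0.21 to 0.34 with the replicate block. The sign of the HRC value turned when RPMI plus B27 replicate 3 (-0.19) or DMEM plus fatty acids replicate 1 (-0.05) or 2 (-0.07) was left out.

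Levels of different genes were set side by side as CPM per kilobase of exon in the coding transcripts of GENCODE 29. On this scale the order PLN, ATP2A2, HRC, PPP1R1A held in all 6 libraries. PLN had 1290 ± 353 and ATP2A2 312.3 ± 24.0 CPM per kilobase in RPMI plus B27 (SD, n = 3). In DMEM plus fatty acids they had 1089 ± 193 and 400.4 ± 163.5 CPM per kilobase. The lowest PLN library (883.2) was above the highest ATP2A2 library (567.9). HRC had 137.8 ± 42.7 and 142.2 ± 35.5, and PPP1R1A had 21.3 ± 3.39 and 19.5 ± 4.24 CPM per kilobase in RPMI plus B27 and DMEM plus fatty acids. Below them, the place of SLN differed between media. SLN was above ATP2A3 and ATP2A1 in all 3 RPMI plus B27 libraries, at 1.11 to 8.94 CPM per kilobase, and below both in all 3 DMEM plus fatty acids libraries, at 0.074 to 0.43. In RPMI plus B27 the ranges of SLN and ATP2A3 (1.01 to 4.07) overlapped across libraries. Within replicate 3 of that medium SLN was only just above ATP2A3 (1.11 against 1.015), and the difference between these neighbours was not tested. ATP2A1 was at 0.50 to 0.81 CPM per kilobase throughout. C4orf3, at 57.2 ± 12.2 and 30.6 ± 1.45 CPM per kilobase, lay between HRC and PPP1R1A in both media. Its place above PPP1R1A depended on the length used. Per kilobase of the longest coding transcript, the DMEM plus fatty acids means were 32.6 for C4orf3 and 31.1 for PPP1R1A. STRIT1 was below SLN in all 3 RPMI plus B27 libraries and above it in all 3 DMEM plus fatty acids libraries, where it had 2.87 to 8.05 CPM per kilobase.

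The balance of inhibitor and pump transcripts was measured as a ratio of counts within each library, which does not depend on scaling. The PLN to ATP2A2 ratio was 1.79, 1.56 and 0.994 in RPMI plus B27 and 0.80, 0.93 and 1.33 in DMEM plus fatty acids. It was lower in DMEM plus fatty acids for replicate numbers 1 and 2 and higher for number 3, and the media overlapped. The mean log2 difference was -0.49 (exact two-sided permutation p = 0.2, adjusted 0.3). The SLN to PLN ratio, on the log2 scale, was -9.58 ± 1.14 in RPMI plus B27 against -13.42 ± 1.31 in DMEM plus fatty acids (n = 3 and SD for each) and did not overlap, with the exact permutation p at 0.1, the smallest that 3 against 3 libraries can give (adjusted 0.3). The SLN to ATP2A2 ratio was likewise -9.09 ± 1.58 and -13.42 ± 1.46 on the log2 scale, with an exact permutation p of 0.1 (adjusted 0.3).

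Set against the mean log2 level of the 12 cardiomyocyte markers, ATP2A2 was 1.43 ± 0.20 higher than them in RPMI plus B27 and 1.95 ± 0.33 higher in the other medium (log2, SD, n = 3 each). ATP2A2 was higher relative to the markers in DMEM plus fatty acids for all 3 replicate numbers, by 1.02, 0.36 and 0.17. The media still overlapped, and the exact permutation p was 0.2 (adjusted 0.3). The mean log2 difference of 0.52 was 0.13 with TNNT2 as the only marker (exact permutation p = 0.6). PLN was 1.92 ± 0.46 and 1.94 ± 0.06 above the same markers, a mean log2 difference of 0.02 (exact permutation p = 1, adjusted 1), and this difference was -0.36 against TNNT2 alone. Of those 12 markers 0 were called by edgeR (2 at an unadjusted p under 0.05), and 2 were lower both with the replicate block and by DESeq2, ACTN2 and CSRP3.

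**Figure D3:**
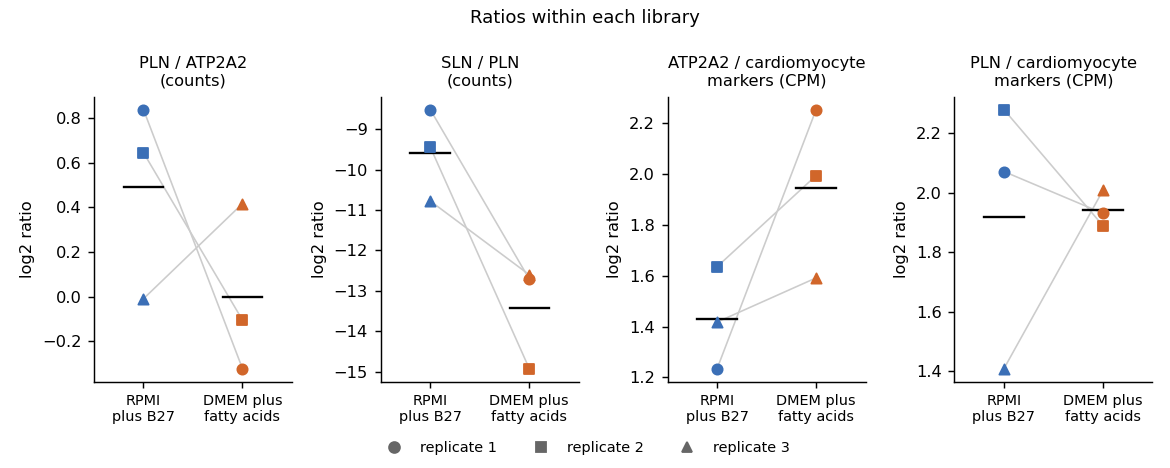
Log2 ratios within each library (vertical axes) for PLN over ATP2A2 and SLN over PLN counts, and for ATP2A2 and PLN over the mean of 12 cardiomyocyte markers, with replicate numbers joined by grey lines and means as black bars. SLN over PLN is lower in all 3 DMEM plus fatty acids libraries, while in the other panels the media overlap.

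Genes around the pump were read from lists given by role. Over all tested genes, 17.7% had an unadjusted p under 0.05 in edgeR, 4.78% were called with the block and 7.52% by DESeq2. Of 19 genes that set the phosphorylation of PLN (kinase and phosphatase subunits, their anchors and inhibitors), 0 passed edgeR with or without the replicate block, and 3 had an unadjusted p under 0.05. DESeq2 called 2 of the 19, AKAP7 higher (adjusted p 0.0304) and HSPB6 lower (adjusted p 0.0436). The median log2 fold change was -0.08. The 3 were AKAP7, the anchor that brings protein kinase A to PLN, HSPB6, a small heat shock protein that inhibits protein phosphatase 1, and CAMK2A, a subunit of the calmodulin-dependent kinase. AKAP7 had 8.40, 11.9 and 11.2 CPM in RPMI plus B27 and 15.4, 20.2 and 16.3 CPM in DMEM plus fatty acids (0.72 ± 0.20, edgeR adjusted p 0.135). HSPB6 had a log2 fold change of -1.31 ± 0.44 (edgeR adjusted p 0.192) and CAMK2A one of 0.42 ± 0.16 (edgeR adjusted p 0.234). The kinase subunit PRKACA, at -0.01 ± 0.14, and the phosphatase subunit PPP1CB, at -0.16 ± 0.16, overlapped between media.

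Of 15 genes of the calcium store and its release, 0 passed edgeR without the block (6 at an unadjusted p under 0.05, and 1 by DESeq2, ASPH, a junctional protein, which was lower) and 2 with it, 1 higher and 1 lower, and the median was -0.06. The lower one was CASQ2, cardiac calsequestrin, the main calcium buffer of the store. It had 68.1, 54.8 and 9.73 CPM in RPMI plus B27 and 8.40, 16.99 and 5.04 CPM in DMEM plus fatty acids, where RPMI plus B27 replicate 3 lay within the range of the other medium. The CASQ2 log2 fold change was -2.12 ± 0.72 (edgeR adjusted p 0.191), and under the block it fell by 1.90 (edgeR adjusted p 0.0492). The higher one was ITPR1, an inositol trisphosphate receptor, at 22.2, 21.8 and 28.1 CPM against 33.5, 32.1 and 40.3 CPM (0.55 ± 0.16, edgeR adjusted p 0.147, or 0.0493 under the block). RYR2, the release channel, had 0.01 ± 0.21, and TRDN, triadin, had -0.30 ± 0.14 (edgeR adjusted p 0.332). Also under an unadjusted p of 0.05 were JPH2 (-0.57 ± 0.24), lower, and CANX (0.57 ± 0.23) and TMEM38B (0.37 ± 0.14), higher. Their CPM did not overlap between media (edgeR adjusted p 0.272, 0.252 and 0.244).

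Of 10 other calcium pumps and exchangers, 7 were tested. None passed edgeR without the block (2 at an unadjusted p under 0.05, and 1 by DESeq2, ATP2B4, which was lower), and the median was -0.09. ATP2B2, a plasma membrane calcium pump, was called with the block, from 1.54, 0.425 and 0.298 CPM in RPMI plus B27 to 3.83, 2.41 and 1.04 CPM in DMEM plus fatty acids (1.66 ± 0.71, edgeR adjusted p 0.283, or 0.0476 under the block). ATP2B4, another surface pump, had -0.46 ± 0.13 (edgeR adjusted p 0.149), and the sodium-calcium exchanger SLC8A1 had -0.09 ± 0.22 (edgeR adjusted p 0.862). SLC8A2, another exchanger, stood at -2.16 ± 0.74 (edgeR adjusted p 0.194), from under 2.1 CPM in every library.

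**Figure D4:**
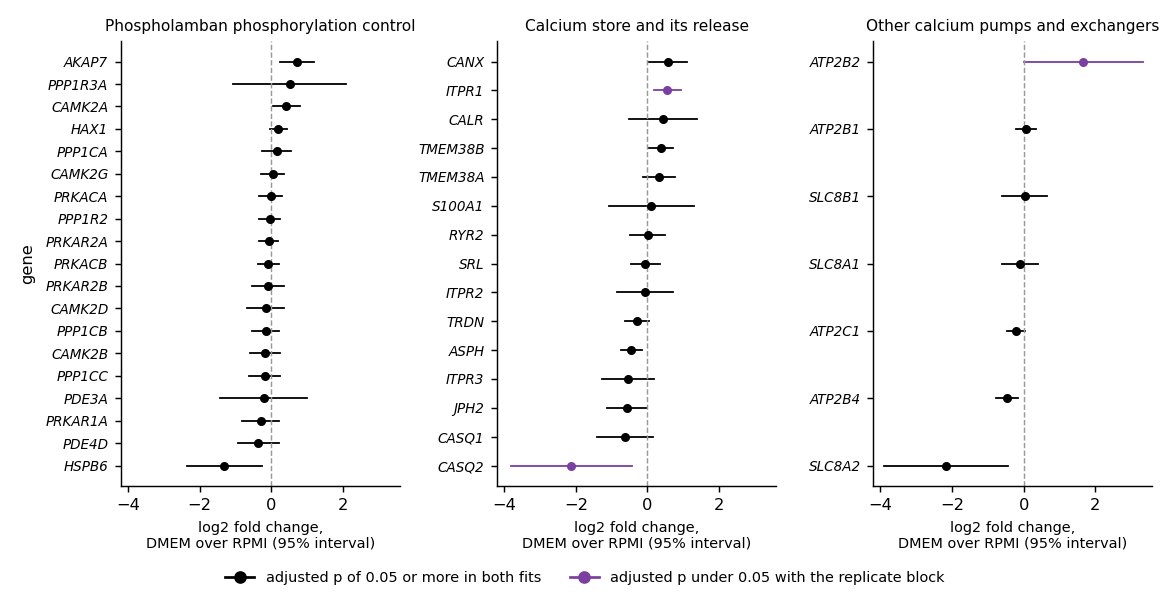
Log2 fold change between media (horizontal axes, DMEM plus fatty acids relative to RPMI plus B27) with 95% intervals from the fit without the block, for the tested genes of 3 lists. Purple marks the 3 genes called with the replicate block, CASQ2, ITPR1 and ATP2B2, and most other genes lie near 0.

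The genes whose pattern over the 6 libraries lay nearest to each member were found among 10027 others whose mean was 10 CPM or more (10028 for ATP2A3), by the root mean square difference of mean-centred log2 CPM. For ATP2A2 they were MIR22HG (0.08), ADPRHL1 (0.12) and SLC39A14 (0.12), where the median gene was 0.43 away. For PLN they were PAG1 (0.10), MBNL2 (0.12) and TVP23B (0.12), which has a near-identical copy, against a median of 0.39. For HRC they were SMAD9 (0.09), FABP3 (0.10) and GPRIN3 (0.11) against 0.43. For PPP1R1A they were ANP32B (0.05), EVC (0.06) and TDP1 (0.06) against 0.32. ATP2A3, with its high replicate 1, was nearest to UNC13D (0.22), TMEM120B (0.24) and LTBP4 (0.25) against 0.83. SLN and ATP2A1, with means under 10 CPM in both media, were left out.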

How the data were processed

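The authors deposited unnormalized read counts for each gene symbol, 1 table per library, with replicates not pooled. An mRNA kit that marks strand was used, per the labels' protocols. STAR, HTSeq and hg38 are named in the submitters' processing notes; the annotation and the strand setting are not given in the sources used here. Gene rows held 84.4% to 87.2% of each library, and the summary rows were left out of library sizes and tests. Groups and replicate numbers come from the sample titles.

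Counts were tested with edgeR 4.0.16 (R 4.3.3): filterByExpr defaults (minimum count 10, total 15), TMM, quasi-likelihood test over all 16107 genes, Benjamini-Hochberg threshold 0.05, tested on simulated data. The 95% intervals are per gene, not adjusted. Log2 CPM used a prior count of 2. Deviations of libraries sharing a replicate number correlated at 0.31, 0.43 and 0.37 and those of other numbers at -0.24 to -0.14, so the numbers were taken to pair the libraries; what a number stands for is not in the labels. Ratios were compared by exact permutation tests (SciPy 1.17.1).

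Alternatives were other scalings and filters, DESeq2 1.42.0, the block, leaving out each library, another prior count and TNNT2 as the only marker. The members and gene lists were chosen with earlier results of these data known. Named were the members, the other micropeptides and overlapping genes, list genes past the threshold in either fit or otherwise those with the 3 smallest p values, and the 3 nearest patterns. PRKACA, PPP1CB, RYR2, TRDN, JPH2, CANX, TMEM38B, SLC8A1, SLC8A2, ATP2B4, MYL7, ASPH and KDR were named for their roles, values or calls after their values were seen. The same holds for ITGA2B, GP1BA, SPI1, EPCAM, CDH1, TEK, CDH5, PTPRC, HBG1, CAMK2B, CAMK2D and CAMK2G. It also holds for the skeletal muscle markers named as without counts. Markers of other cell types are mostly given as sums and counts.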

Additional observations from a re-analysis of the deposited data

How the results depend on the processing

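The count of genes called between media, 219, was 1212 by DESeq2, 539 without a filter on low counts, 119 with at least 10 counts in every library, 770 with the replicate block and 3 to 131 when 1 library was left out. The count of members called was 0 as reported and 1 (SLN) by DESeq2, without a filter, with the replicate block and without RPMI plus B27 replicate 3, and 0 to 1 over the fits that left out 1 library. STRIT1 kept its call under each of the 5 other scalings, filters and tests that could be run. With at least 10 counts in every library, SLN and STRIT1 were filtered out and have no value.

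Some differences that were not called without the block changed sign. The ATP2A2 share of SERCA counts (0.29 percentage points) was -0.0378 to 0.461 when 1 library was left out. The PLN level relative to cardiomyocyte markers (0.02) was -0.23 to 0.20 when 1 library was left out and -0.36 against TNNT2 alone. ATP2A1 was 0.0621 under scaling by total counts and -0.22 to 0.20 when 1 library was left out, ATP2A3 was -1.03 to 0.50, HRC -0.19 to 0.24 and KCNA5 -3.31 to 0.0242, the last without RPMI plus B27 replicate 1. The cause was not tested. ATP2A2, PLN, SLN, PPP1R1A, STRIT1 and C4orf3 kept their direction under each alternative run. With the replicate block, as an exact sign-flip permutation within numbers, the mean PLN to ATP2A2 difference was again -0.49 (exact p = 0.5). With 3 pairs that test allows no p below 0.25. The exact sign-flip p was 0.25 for SLN to PLN, SLN to ATP2A2 and ATP2A2 to the cardiomyocyte markers. For the ATP2A2 share of SERCA counts the exact sign-flip p was 0.75. The block changed the call of SLN, C4orf3, CASQ2, ITPR1, ATP2B2, NPPA, KCNA5, MYH7, ACTN2 and CSRP3 among the genes of the members' and calcium lists and the cardiomyocyte, atrial and ventricular lists, and of no other gene in them. Counts of 2 to 10 per library limit the precision of SLN in DMEM plus fatty acids and of STRIT1 in RPMI plus B27.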
